A study of Homo sapiens with 6 samples.

Results

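Clathrin-mediated endocytosis was followed through the transcripts of 10 genes: the clathrin chains CLTA, CLTB and CLTC, the AP2 subunits AP2M1, AP2A1 and AP2B1, and the accessory genes PICALM, EPN2, BIN1 and DNM2. Every splicing event listed for these genes with a mean of at least 10 junction reads over the 6 libraries was taken, which gave 106 of 113 listed events, against 66400 of 78228 events read for all genes. The events were thus chosen by gene name and by read count, and the rule used no other measured value. The genes themselves were chosen with earlier results of these data known. Just inside the minimum were events of PICALM (mean 11.0 reads), BIN1 (15.7) and EPN2 (25.5), and just outside were events of CLTA (6.0), EPN2 (5.5) and EPN2 (4.83). All 10 genes had at least 1 event past it.

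The libraries came from NCI-H1975, a human lung adenocarcinoma cell line. Control cells (3 libraries) received the empty plasmid PCDNA3.1 and SAM68 cells (3 libraries) the same plasmid carrying SAM68, the RNA-binding protein encoded by KHDRBS1. Both groups received 2 µg of plasmid per well by lipofection, and RNA was taken after 48 h. The comparison asks how transcripts are spliced when SAM68 is in excess. It concerns transient transfection of 1 cell line. The study's methods call the libraries of a group biological replicates. The p-values of splicing events rest on 1 spread between libraries common to all events of a type, so they are too small for an event that varied more than that.

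Clathrin forms a lattice of 3-legged units, each made of heavy chains (CLTC) with light chains (CLTA, CLTB) bound along the leg. AP2 is the adaptor that links this lattice to cargo and to phosphoinositides of the plasma membrane. PICALM and EPN2 bind the membrane and clathrin, BIN1 senses and shapes curved membrane, and DNM2 is the GTPase that cuts the neck of the pit. Several of these genes carry short exons whose use differs between tissues, the best known being inserts of the light chains in neurons. Inclusion is given as PSI, the percentage of transcripts that contain the alternative exon or the longer exon form, computed from junction reads and the effective length of each form. ΔPSI is the SAM68 mean minus the control mean in percentage points, and ± is the SD of 3 libraries.

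Junction reads of KHDRBS1, the targeted gene, were 311, 328 and 316 rpm (reads per 1000000 reads of the summed gene levels) in control and 1230, 1260 and 1276 in SAM68 libraries (log2 fold change 1.98 ± 0.05 SE, limma, adjusted p = 1.08e-21), higher in each SAM68 library. Depth was similar throughout, from 16951876 to 19737729 junction reads over the exon-skipping (SE) table. Of 10 lung epithelial markers, 4 had a listed splicing event and could be read. KRT8 had 520, 253 and 236 rpm in control and 248, 235 and 229 in SAM68 libraries, with 1 control library apart from the other 5. KRT18 was higher without overlap (471, 484 and 492 against 521, 524 and 530 rpm) and KRT7, on few reads, lower without overlap (4.48, 3.02 and 3.51 against 1.26, 1.84 and 2.20 rpm), neither passing the adjusted p (limma, 0.305 and 0.382), and NAPSA had 0 to 5 reads per library. The summed level of the marker list was 995, 740 and 733 rpm in control and 761 to 770 in SAM68 libraries. None of the 8 markers of leukocytes, endothelium or fibroblasts had a listed event, which leaves their level unread.

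None of the 106 events passed both limits of the test, an adjusted p under 0.05 and a ΔPSI of at least 10 points. Over all genes 62 of 66400 events did (0.0934%). On the adjusted p alone, 3 of the 106 events passed, against 0.259% of all events tested. These were the 6-nt exon of AP2M1, exons 2 and 3 of AP2M1 read against each other, and exons 2 and 3 of CLTA read against each other. An unadjusted p under 0.05 was reached by 10 of the 106 events (5.95% of all events), and the PSI ranges of the 2 groups did not overlap in 7 of the 106 (6.45% of all events). The median absolute ΔPSI was 0.691 points over the 106 events and 1.24 points over all events tested, at a median depth of 256 and 111 reads. Many of the 106 events share exons and reads, and they describe 95 distinct exons, exon pairs or sites. Of the 106, 54 had a mean PSI above 95%, 24 below 5% and 28 in between.

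**Figure D1:**
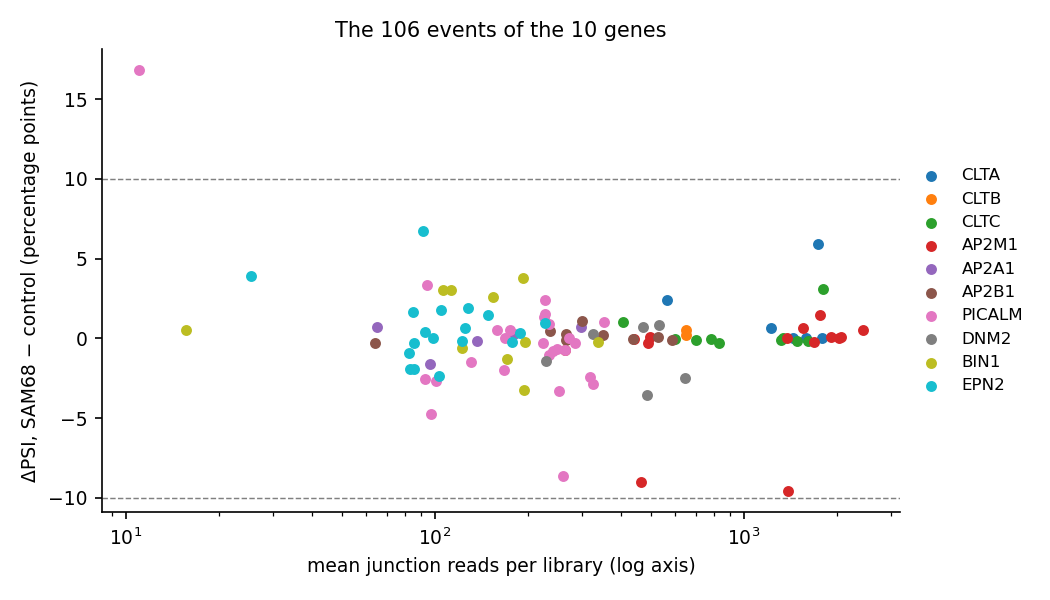
ΔPSI of each of the 106 events (SAM68 minus control, percentage points) against its mean junction reads per library on a log axis, 1 point per event and 1 colour per gene. The dashed lines mark 10 points. 1 PICALM event with a mean of 11.0 reads lies above the upper line, and the lowest points are the pair of AP2M1 events at −9.01 and −9.59 points.

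The largest shift by adjusted p was in AP2M1, the medium (µ2) subunit of AP2, which recognises tyrosine-based sorting signals in cargo. Its 6-nt exon at chr3:184180645-184180650 (GRCh38, plus strand) is exon 5 of 12 in the Ensembl canonical transcript of GENCODE 44, is wholly coding and keeps the reading frame. It is present in 6 of 11 protein-coding transcripts of the gene. The sequence is shown because so short an exon can be followed only by reads that cross both of its ends, with the exon in capitals between 50 bases of the upstream and 40 bases of the downstream intron, from hg38 chr3:184180595-184180690.
AP2M1 6-nt exon: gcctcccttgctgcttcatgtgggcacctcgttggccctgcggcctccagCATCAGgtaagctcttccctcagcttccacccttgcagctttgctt

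In the control libraries the AP2M1 6-nt exon was carried by 28 of 454, 32 of 500 and 78 of 507 junction reads, and in the SAM68 libraries by 0 of 489, 0 of 450 and 0 of 391. PSI was 5.95%, 6.18% and 14.9% in control and 0% in each SAM68 library. The groups did not overlap, and 1 control library stood above the other two. ΔPSI was −9.01 points (9.01% ± 5.10 to 0%, adjusted p = 2.14e-15, quasi-binomial test), under the 10-point limit. The 1330 reads of the SAM68 libraries with none carrying the exon allow a share of up to 0.226%, for counting error only. Dropping 1 control library moved it across that limit or away from it: without list position 1 or 2 the difference was −10.5 and −10.4 points, past both limits (adjusted p = 1.11e-15 and 4.04e-16), and without list position 3 it was −6.07 points (adjusted p = 4.61e-08). With each event keeping its own spread the adjusted p was 0.692, and limma applied to logit PSI gave 0.0483.

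Exons of at most 15 nt behaved unevenly in these tables. Among 26 such exons with at least 20 inclusion reads in a group, 4 had none at all in the other group (15.4%), against 5 of 42004 longer exons (0.0119%). The other 3 were 12-nt exons of M1AP, SUPT5H and ERO1A, named after their values were seen. M1AP had 28 inclusion reads in 1 SAM68 library and none elsewhere, SUPT5H had 22 in 1 SAM68 library, and ERO1A had 20 and 40 in a pair of control libraries. The AP2M1 exon was the one of the 4 with inclusion reads in every library of a group. The part of this unevenness in the AP2M1 result was not tested. A longer listed form of the exon, of 97 nt from the same start, had 1 read in 1 control library.

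**Figure D2:**
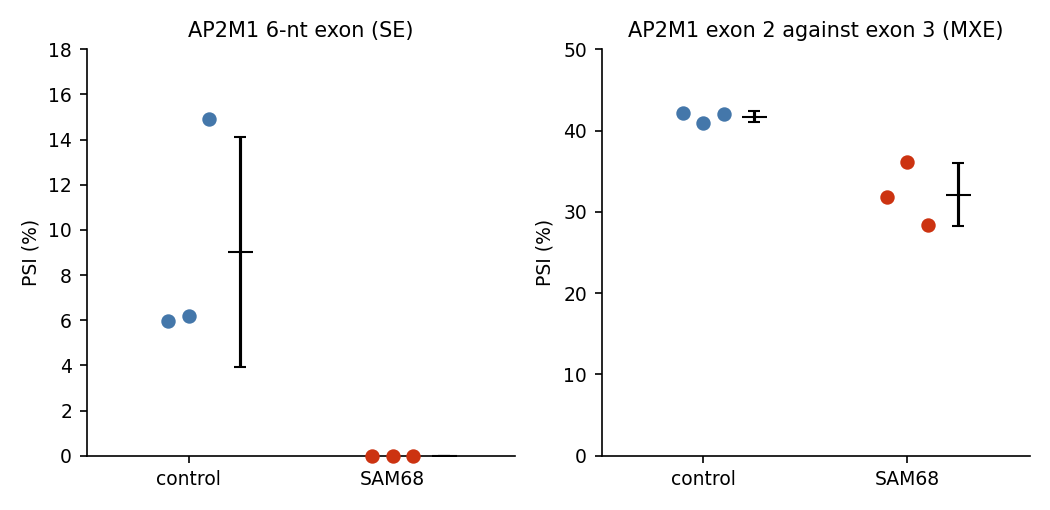
PSI of AP2M1 (%) per library in control (blue) and SAM68 (red), with the mean and SD beside the points, for the 6-nt exon on the left and for exon 2 read against exon 3 on the right. The 6-nt exon is at 0% in the 3 SAM68 libraries, and the share of exon 2 is lower in each SAM68 library than in each control library.

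In the table of mutually exclusive exons (MXE), AP2M1 exon 2 (chr3:184176951-184177067, partly coding) was set against exon 3 (chr3:184178857-184179122, coding). The share of exon 2 was 42.1%, 40.9% and 42.1% in control and 31.8%, 36.2% and 28.4% in SAM68 libraries, on 1209 to 1506 reads per library. The ranges did not overlap (ΔPSI −9.59 points, 41.7% ± 0.69 to 32.1% ± 3.90, adjusted p = 5.45e-06). Of all MXE events, 1.14% passed the adjusted p alone. Dropping the SAM68 library at list position 2 brought the shift to −11.6 points and past both limits (adjusted p = 4.42e-07), and the adjusted p was at most 0.00991 whichever library was left out. With each event keeping its own spread the adjusted p was 0.895, and limma applied to logit PSI gave 0.873.

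Exons 2 and 3 of AP2M1 were not exclusive in these cells. Exon 3 alone had a PSI of 98.4% to 99.9% in the 6 libraries, so the MXE value compares reads at the front of the transcript with reads 1 exon further on, not 2 alternative messages. Inclusion reads along the gene count the junctions of the event listed for each exon. They compare the groups at the same exon, and not 1 exon with another. At exon 2 they were 137, 117 and 126 rpm (here per 1000000 SE junction reads) in control and 91.7, 107 and 84.8 in SAM68 libraries, a fall of the mean by 25.3%. At exon 3 they were 153, 134 and 140 against 120, 128 and 118, lower by 14.1%. These counts share the reads of the junction between exons 2 and 3, which were 104, 87.9 and 94.3 rpm in control and 69.8, 82.0 and 65.5 in SAM68 libraries. Without that junction exon 2 had 33.6, 30.3 and 31.5 against 22.2, 24.9 and 19.8 rpm, lower without overlap, while exon 3 had 48.7, 46.3 and 45.7 against 50.3, 46.4 and 52.7 rpm, with overlap. The lower reads of exon 3 were thus those of its junction with exon 2.

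Toward the 3′ end of AP2M1 the order turned. Exons 4, 7 and 8 had overlapping ranges. The event of exon 4 starts from exon 2 and leaves out the junction of exons 3 and 4. Its reads were few (means of 14.0 rpm in control and 14.7 in SAM68 libraries). Exon 10 had 88.3, 88.4 and 83.9 rpm in control and 97.1, 98.5 and 95.5 in SAM68 libraries, higher by 11.7%. Exon 11 was higher by 8.07%, again without overlap. These exons share a junction too, with 49.0, 46.5 and 44.5 rpm in control and 52.1, 54.4 and 53.2 in SAM68 libraries. Without it exon 10 was still higher without overlap (39.9 ± 1.58 and 43.4 ± 1.41 rpm), and exon 11 overlapped (53.4 ± 1.16 and 54.9 ± 2.88 rpm). Each difference without overlap had an exact two-sided permutation p of 0.1, the smallest that 3 against 3 libraries can give. Of 39 exons of the 10 genes read in this way, 2 were lower and 7 higher without overlap. AP2M1 held 2 of each, and the share over exons of all genes was not computed. Exons 10 and 11 read against each other did not separate the groups (ΔPSI 1.44 points, adjusted p = 0.898).

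CLTA, the light chain a of clathrin, had the remaining event past the adjusted p. Exon 2 (chr9:36197551-36197588, 38 nt, coding) read against exon 3 (chr9:36198979-36199096) rose from 36.6%, 38.1% and 36.4% in control to 40.3%, 45.1% and 43.3% in SAM68 libraries, without overlap (ΔPSI 5.90 points, 37.0% ± 0.94 to 42.9% ± 2.44, adjusted p = 0.0358). The adjusted p was 0.102 when all 5 event types were adjusted together, and it ran from 0.0137 to 0.248 over the 6 fits that each left out 1 library. With each event keeping its own spread it was 0.895, and limma applied to logit PSI gave 0.873. Here too the exons were mostly used together. Exon 2 had a PSI of 99.8% to 100% by the event with the most reads, which ends at exon 3. By a further event, which ends at exon 4, it had 91.7%, 94.9% and 91.9% in control and 96.3%, 94.9% and 94.7% in SAM68 libraries, with overlap (ΔPSI 2.42 points, adjusted p = 0.699). Inclusion reads at exon 2 were 86.2, 91.3 and 95.4 rpm in control and 102, 107 and 104 in SAM68 libraries. Without the junction to exon 3 they were 25.9, 25.6 and 26.6 against 30.2, 33.6 and 34.8, higher without overlap. At exon 3, again without that junction, they overlapped (65.6 ± 3.69 and 64.6 ± 3.61).

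The heavy chain gene CLTC gave a like but smaller value in the same kind of event. Exon 2 (chr17:59644276-59644483) read against exon 3 (chr17:59647398-59647666) had shares of 44.1%, 43.8% and 45.5% in control and 47.1%, 46.8% and 48.8% in SAM68 libraries. The ranges did not overlap, and the test was not passed (ΔPSI 3.11 points, adjusted p = 0.560). Of the 12 MXE events of the 10 genes, 6 shifted toward and 6 away from the exon nearer the 5′ end, and 53.9% of all MXE events tested shifted away from it.

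The 54-nt exons of the clathrin light chains were almost unused. They, and the CLTC exon described with them, were named after their values were seen. The 54-nt exons of the 2 light chain genes occupy like positions, and 35 of their 54 bases (64.8%) are the same when they are laid side by side without gaps. They are shown with the exon in capitals and 20 intron bases on each side, from hg38 chr9:36209247-36209340 (CLTA, plus strand) and chr5:176396459-176396552 (CLTB, minus strand).
CLTA 54-nt exon: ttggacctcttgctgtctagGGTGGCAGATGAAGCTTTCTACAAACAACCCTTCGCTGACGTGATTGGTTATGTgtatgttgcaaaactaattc
CLTB 54-nt exon: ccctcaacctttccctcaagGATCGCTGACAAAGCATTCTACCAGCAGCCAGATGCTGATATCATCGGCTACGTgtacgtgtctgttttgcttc

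The CLTA 54-nt exon had a PSI of 0% in the 3 control libraries and of 0.0841%, 0% and 0% in SAM68 libraries, on 1495 to 1689 reads per library. The CLTB 54-nt exon had a PSI of 0.538%, 0% and 0% in control and 0.437%, 0.704% and 0.121% in SAM68 libraries. Messages with the 54-nt exon were thus almost absent from both genes in either group. A 552-nt exon of CLTB at chr5:176406157-176406708 was at 0.394%, 0.469% and 0% in control and 1.22%, 0.662% and 0.508% in SAM68 libraries, without overlap (ΔPSI 0.51 points, adjusted p = 0.699). The 21-nt exon of CLTC at chr17:59687001-59687021 had a PSI of 0.612%, 3.33% and 0.232% in control and 0%, 6.75% and 0.415% in SAM68 libraries, on 17 of 445 reads in the higher control library and 28 of 363 in the higher SAM68 library. It was thus in low use in 1 library of each group and below 1% in the other 4.

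AP2B1 encodes the large β2 subunit of AP2, whose hinge binds clathrin. It has a 42-nt coding exon that was partly included, exon 15 of 22 at chr17:35670857-35670898. It is shown with 30 intron bases on each side (hg38 chr17:35670827-35670928, plus strand).
AP2B1 42-nt exon: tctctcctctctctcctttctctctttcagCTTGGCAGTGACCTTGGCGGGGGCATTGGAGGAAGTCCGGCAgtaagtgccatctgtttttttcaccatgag

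PSI of the AP2B1 42-nt exon was 31.2%, 33.3% and 28.7% in control and 32.1%, 33.8% and 30.5% in SAM68 libraries, on 276 to 323 reads per library. The groups overlapped (31.0% ± 2.31 and 32.2% ± 1.65, ΔPSI 1.12 points, adjusted p = 0.880). The other 8 events of AP2B1 and all 5 events of AP2A1, the αA subunit that binds phosphoinositides, were above 95% or below 5%. Their largest absolute ΔPSI was 1.63 points.

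PICALM, a clathrin assembly protein that binds phosphoinositides, had the most listed events of the 10 genes, 26 at 20 distinct sites. Of these events 12 had a mean PSI between 5% and 95%, against 5 of 10 in BIN1. A 24-nt coding exon at chr11:85978070-85978093, absent from the canonical transcript, had a PSI of 18.5%, 29.3% and 26.4% in control and 33.5%, 25.6% and 22.3% in SAM68 libraries. Upstream of it, a pair of 3′ splice sites 15 nt apart opens exon 15, and the longer form took 56.5%, 64.7% and 61.0% in control and 60.0%, 57.0% and 55.3% in SAM68 libraries. Both choices keep the reading frame, and neither separated the groups (adjusted p = 0.699 and 0.805). The 24-nt exon is printed in capitals with 30 intron bases on each side (hg38 chr11:85978040-85978123, minus strand), and the paired sites with the 15 bases that belong only to the longer form in capitals (chr11:85981959-85982033, minus strand).
PICALM 24-nt exon: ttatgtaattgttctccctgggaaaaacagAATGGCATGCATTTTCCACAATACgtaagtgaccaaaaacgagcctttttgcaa
PICALM paired 3′ sites: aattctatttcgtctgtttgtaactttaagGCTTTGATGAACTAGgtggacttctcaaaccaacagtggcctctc

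The other PICALM exons overlapped between the groups as well. The 60-nt exon 18 had a PSI of 88.9%, 86.7% and 83.7% in control and 92.1%, 90.0% and 75.0% in SAM68 libraries, with the lowest value in a single SAM68 library. Exon 13, of 150 nt at chr11:85990250-85990399, was included at 49.9% ± 2.53 in control and 47.0% ± 6.07 in SAM68 libraries. A 129-nt form of the same exon, with its 3′ site 21 nt further in, was little used: reads of its own site numbered 0, 4 and 0 in control and 6, 7 and 1 in SAM68 libraries, against 76 to 120 per library at the site of the 150-nt form (ΔPSI of the longer form −4.74 points, adjusted p = 0.805). The event listed for the 129-nt form (34.7% ± 3.87 and 35.5% ± 4.63) rests almost wholly on the junction with exon 14, which both forms share. Exon 13 read against exon 14 stood at 28.6% ± 2.16 and 26.2% ± 3.59. Apart from a 126-nt exon on few reads, given below, the largest shift in PICALM was that of exon 2 read against exon 3. It went from 66.5%, 57.7% and 59.1% in control to 51.6%, 60.3% and 45.4% in SAM68 libraries, with overlap (ΔPSI −8.65 points, adjusted p = 0.552, and −12.6 to −5.13 points when each library was left out in turn). Exon 2 itself was included at 98.0% ± 2.51 and 99.0% ± 0.86 by the event with the most reads, and at 90.4% in both groups by a second event. Forms of exon 1 of 83 and 88 nt, which share their junction to exon 2 and their skipping reads, were at 95.7% and 96.1% in control and 93.1% and 93.4% in SAM68 libraries. The only event of the 106 past 10 points, for a 126-nt PICALM exon at chr11:86023416-86023541, had 2 to 16 reads per library and control values of 44.9%, 100% and 0% (ΔPSI 16.8 points, adjusted p = 0.980). By a deeper event of the same exon, on 136 to 222 reads per library, PSI was 4.44% in control and 4.96% in SAM68 libraries (ΔPSI 0.52 points).

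EPN2 encodes epsin 2, which inserts into the membrane and helps to bend it. Its exon 7 opens at tandem 3′ splice sites. The site 18 nt further upstream was used at 75.0%, 77.1% and 85.5% in control and 86.2%, 76.1% and 77.2% in SAM68 libraries (ΔPSI 0.68 points, adjusted p = 0.974). Another site lies 3 nt beyond the second, and of those 2 the upstream one took 89.1% ± 11.1 in control and 93.0% ± 8.78 in SAM68 libraries on 18 to 32 reads. The sequence is shown with the 18 bases between the first and second sites in capitals (hg38 chr17:19313075-19313152, plus strand).
EPN2 tandem 3′ sites: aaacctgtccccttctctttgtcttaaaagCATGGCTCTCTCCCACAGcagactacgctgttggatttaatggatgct

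Exon 10 of EPN2, of 216 nt at chr17:19331853-19332068, had a PSI of 97.6%, 97.9% and 84.3% in control and 100% in each SAM68 library on 82 to 106 reads. The groups did not overlap, and 1 control library lay well below the other two (ΔPSI 6.74 points, adjusted p = 0.699). With that library, at list position 3, dropped the difference was 2.25 points. By a deeper event of the same exon, which joins the upstream 3′ site of the last exon, PSI was 98.0% ± 1.91 in control and 98.3% ± 2.21 in SAM68 libraries, with overlap (ΔPSI 0.33 points). The paired 3′ sites of the last exon, 1449 nt apart, gave the longer form 95.2% ± 6.30 in control and 92.8% ± 5.67 in SAM68 libraries.

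BIN1 encodes amphiphysin 2, a membrane-curving scaffold. Its 90-nt exon 16 (chr2:127051154-127051243) had a PSI of 63.2%, 59.8% and 66.4% in control and 59.9%, 63.6% and 62.0% in SAM68 libraries (ΔPSI −1.31 points, adjusted p = 0.908). The 129-nt exon 12 (chr2:127057473-127057601) varied more, from 44.4%, 24.8% and 44.9% in control to 48.1%, 39.7% and 34.1% in SAM68 libraries. The lowest value belonged to the control library at list position 2, which also had the lowest share, 13.3%, when exon 12 was read against exon 16 (37.2% and 34.1% in the other control libraries). Without it the 129-nt difference was −4.03 points in place of 2.57. Both exons keep the reading frame.

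DNM2, the GTPase dynamin 2, chooses between a pair of coding exons of 139 nt each that encode alternative versions of the same stretch of its stalk. The exons lie at chr19:10796061-10796199 and chr19:10797380-10797518, and 97 of their 139 bases (69.8%) are the same. They are shown in capitals with 20 intron bases on each side, since their likeness means that reads tell them apart by those differing bases and by the flanking junctions (hg38 chr19:10796041-10796219 and chr19:10797360-10797538, plus strand).
DNM2 upstream exon: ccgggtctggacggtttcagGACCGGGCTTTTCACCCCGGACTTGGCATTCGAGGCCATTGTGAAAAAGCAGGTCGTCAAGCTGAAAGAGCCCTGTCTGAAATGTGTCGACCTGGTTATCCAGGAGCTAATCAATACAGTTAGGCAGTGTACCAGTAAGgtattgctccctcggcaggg
DNM2 downstream exon: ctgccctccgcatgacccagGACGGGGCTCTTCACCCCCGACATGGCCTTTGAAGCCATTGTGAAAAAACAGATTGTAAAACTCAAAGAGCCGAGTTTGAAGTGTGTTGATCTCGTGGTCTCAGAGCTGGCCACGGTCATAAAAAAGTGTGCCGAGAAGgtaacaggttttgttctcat

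The upstream exon of the DNM2 pair took 63.7%, 68.0% and 65.8% in control and 64.9%, 61.4% and 63.9% in SAM68 libraries, on 536 to 734 reads (ΔPSI −2.48 points, adjusted p = 0.877). Both exons were therefore in use in every library, with the upstream exon, which the canonical transcript lacks, ahead in all 6. The 12-nt exon 14 at chr19:10808569-10808580 had a PSI of 4.30% in 1 control library and 0% in the other 5 (adjusted p = 0.680). Exon 2 of DNM2 was at 98.8%, 99.1% and 100% and exon 3 at 99.6%, 98.6% and 99.2% in control, and both were at 100% in each SAM68 library (adjusted p = 0.699 for both). Read against each other they stood at 51.9% ± 3.08 and 48.4% ± 4.28.

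**Figure D3:**
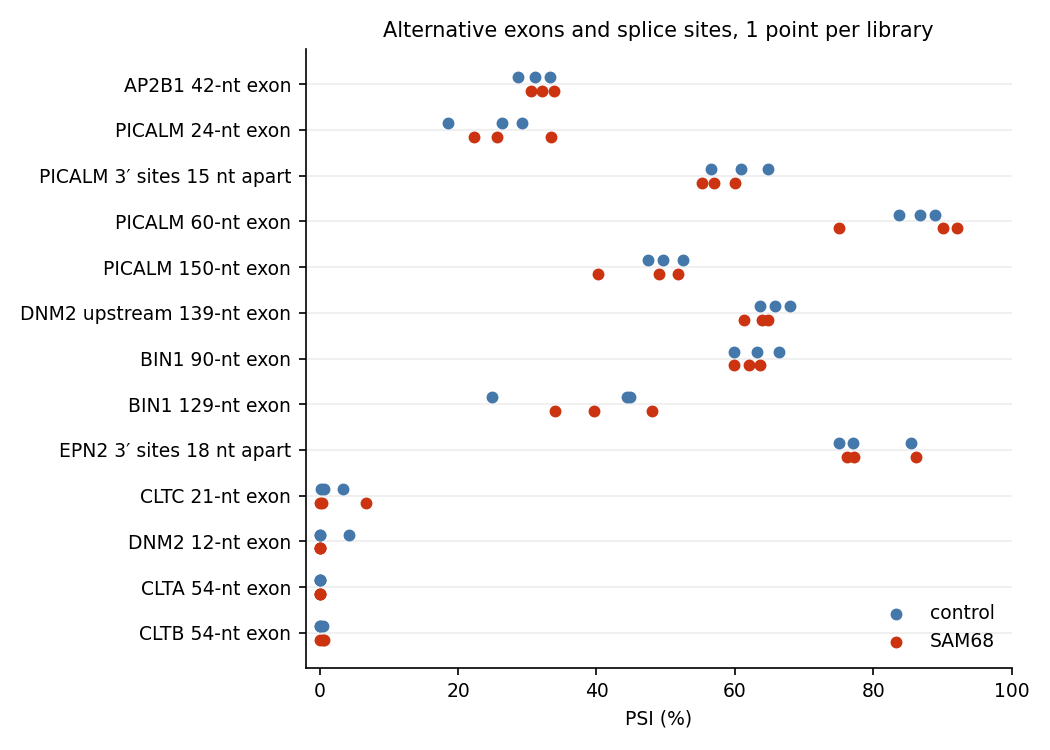
PSI (%) of 13 alternative exons or paired 3′ sites, 1 point per library, control (blue) above SAM68 (red) on each line. The colours overlap or touch on each line, and the 54-nt exons of CLTA and CLTB lie near 0%, while the AP2B1 exon lies between 28.7% and 33.8%.

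SAM68 is known to bind A- and U-rich RNA such as UAAA. The letters TAAA were searched on the transcript strand in the 50 intron bases before and after each exon of the SE table, overlapping matches counted. Of 73 distinct exons of the 10 genes, 25 had a match on either side (34.2%), and of 38685 exons tested over all genes 40.7% had one. The AP2M1 6-nt exon, the CLTA and CLTB 54-nt exons and the DNM2 12-nt exon had no match in these windows, while the PICALM 24-nt exon had 1 after it and the AP2B1 42-nt exon 1 before it. A match is a description of the letters only.

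The level of each gene was read from its event with the most junction reads, since the tables hold no counts per gene, and fewer molecules and fewer reads per molecule cannot be told apart. Per 100 nt of effective length, the rpm averaged 183 for CLTA (162 to 199 over the 6 libraries), 160 for AP2M1 (143 to 185), 118 for CLTC (112 to 128), 84.7 for CLTB, 43.8 for AP2B1, 42.2 for DNM2, 27.0 for BIN1, 23.2 for PICALM, 22.4 for AP2A1 and 14.9 for EPN2. The ranges of neighbours in this order overlapped for CLTA and AP2M1, for AP2B1 and DNM2, for BIN1 and PICALM, and for PICALM and AP2A1. The clathrin chains and AP2M1 thus stood above the rest, and the light chain CLTA lay above CLTB in every library.

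**Figure D4:**
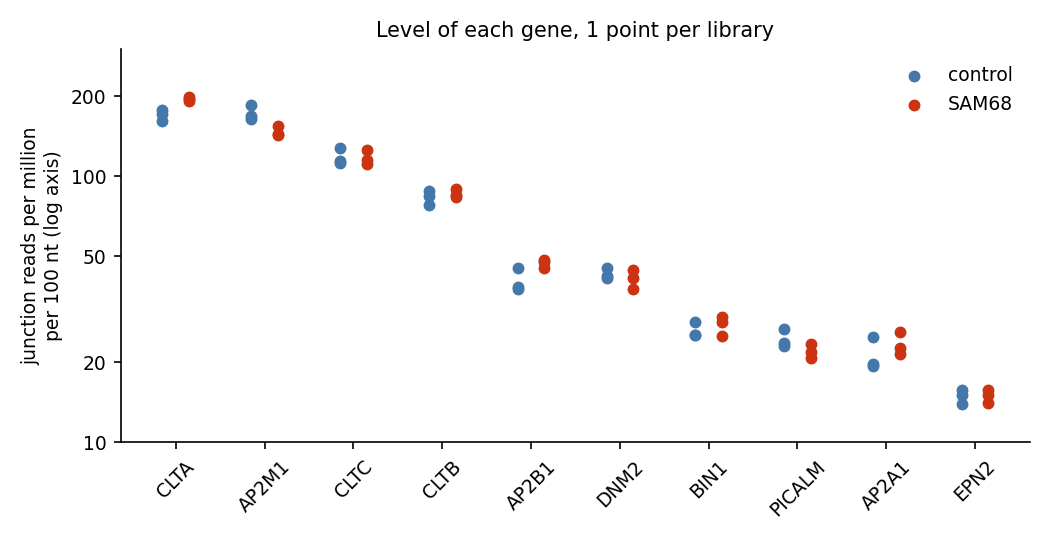
Junction reads in rpm per 100 nt of effective length (log axis) of the 10 genes in their order, 1 point per library, control (blue) and SAM68 (red). By mean, CLTA is highest (162 to 199 over the libraries) and EPN2 lowest (14.9). In the control library at list position 1 AP2M1 (185) lies above CLTA (162). The colours do not overlap for CLTA, AP2M1 and AP2B1.

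None of the 10 genes passed both limits of the gene test, an adjusted p under 0.05 and a log2 fold change of at least 1, which 5 of 10146 genes did (0.0493%), and none passed the adjusted p alone, which 0.414% of genes did. An unadjusted p under 0.05 was reached by 3 of the 10 (12.1% of all genes). AP2M1 had 479, 423 and 437 rpm in control and 375, 400 and 370 in SAM68 libraries, lower without overlap (log2 fold change −0.22 ± 0.06 SE, limma, adjusted p = 0.0704). That value rests on exon 3 and so holds the junction with exon 2. Summed over all events of the gene the log2 fold change was −0.12 (adjusted p = 0.242), and with the SAM68 library at list position 2 dropped it was −0.26 (adjusted p = 0.0311). CLTA had 270, 285 and 297 rpm in control and 319, 333 and 325 in SAM68 libraries, higher without overlap (log2 fold change 0.20 ± 0.06 SE, adjusted p = 0.128), and 0.09 summed over all its events. AP2B1 had 85.8, 103 and 87.2 against 104, 108 and 110 (log2 fold change 0.23 ± 0.09 SE, adjusted p = 0.265), and 0.07 summed over all its events. The groups did not overlap in these 3 of the 10 genes, against 16.8% of all genes. The other 7 overlapped, with log2 fold changes from −0.14 (PICALM) to 0.14 (AP2A1).

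A list of 61 other genes of the same pathway was read in the same way, covering further AP2 subunits and chaperones, cargo adaptors, scaffolds, kinases and lipid enzymes, membrane-bending proteins and uncoating factors. Of these, 50 had a listed event and 46 passed the read minimum. None was called and none passed the adjusted p alone by limma. An unadjusted p under 0.05 was reached by 7 of the 46 (1 higher, 6 lower), against 12.1% of all genes. The log2 fold change was below 0 in 35 of the 46 and above 0 in 11 (median −0.13), against 5785 of 10146 below 0 over all genes (median −0.03). By role, 10 of 11 cargo adaptors, 6 of 7 kinases and lipid enzymes and 6 of 7 membrane-bending genes were below 0. So were 5 of 7 scaffolds, 4 of 6 AP2 subunits and chaperones and the 1 heavy chain paralogue. Of the uncoating factors, 4 of 7 were above 0. AAK1, the kinase that phosphorylates the µ2 subunit, was named after its value was seen: its log2 fold change was −0.91 ± 0.22 SE (adjusted p = 0.0622), and it passed both limits with the SAM68 library at list position 3 dropped (−1.07, adjusted p = 0.0245). That fit called 14 of 10146 genes, the most of the 6 fits that left out 1 library, against 5 with all libraries. None of the 337 events of these genes was called or passed the adjusted p alone by the quasi-binomial test, and 13 reached an unadjusted p under 0.05 (5.95% of all events). A likelihood ratio test that pools the counts of a group called 5 of the 337, against 2.04% of all events, so neither count stood above the background.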

How the data were processed

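RNA-seq was made from 3 control and 3 SAM68 libraries. Per the labels and the submitters' processing notes, reads were base-called with CASAVA 1.4, filtered with fastp 0.20.0 and aligned with HISAT2 2.1.0 to GRCh38. The authors deposited 5 tables in rMATS format (SE, MXE, A3SS, A5SS, RI) with inclusion and skipping junction counts as lists of 3 per group, effective lengths and inclusion levels. Their columns of p-values, FDR and level differences, which hold the authors' own comparison, were not used. The first list was read as control and the second as SAM68, after the order in which the study names its groups, and no position in a list was matched to a sample. Of the A3SS events, 275 had lists regrouped as numbers: 167 were recovered from the inclusion levels, and 108 were left out. A further 543 were taken as printed although another reading was possible.

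Inclusion and skipping counts were fitted per event with a quasi-binomial model in R 4.3.3, the dispersion moderated per type with limma 3.58.1 and never below 1, and p-values adjusted by Benjamini-Hochberg within each type. Since the fitted spread was common to all events of a type (dispersion 2.30 in SE and 2.53 in MXE), an event with an own spread above it has too small a p. Genes were tested, from a mean of 10 reads up, with limma on log2(rpm + 0.5), scaled to 1000000 of a gene total of 5449394 to 6337424. Both tests were checked on simulated data with a common spread, which does not check them for an event or gene that varied more. Splice sites next to the tested SE exons read AG and GT or GC in hg38 in 99.8% of exons. Named events are those called, those with a mean PSI from 5% to 95% and at least 20 reads (1 per exon or site), the 10 with the smallest p, and the deepest of each gene. The members and lists were chosen with earlier results of these data known.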

Additional observations from a re-analysis of the deposited data

How the results depend on the processing

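No paired analysis was possible because the lists carry no replicate numbers. The count of called events of the 10 genes, 0, became 3 with no limit on ΔPSI and 3 with a limit of 5 points, and lay between 0 and 1 when each library was left out in turn. Over all genes, 172 and 106 of 66400 events were called at those limits, and 53 to 73 with a library left out. For the 10 genes the count was 0 under the other settings tried: each event's own spread, no spread between libraries, limma on the logit of PSI, joint adjustment of the 5 types, other read minimums and PSI without lengths. Over all genes, own spread called 2 events, limma on the logit 3, no spread 1354 and the remaining settings 57 to 68. For the other endocytic genes, 5 of 337 events were called by the likelihood ratio test on pooled counts (2.04% of all events). When a library was left out, 0 to 1 of these genes were called, against 1 to 14 of all 10146 genes. No member gene was called under any setting.

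Uncalled differences changed sign when 1 library was left out, over the following ranges of ΔPSI in points: −0.069 to 0.054 for CLTA exon 2, −0.36 to 1.27 for AP2A1 exon 12 and −0.068 to 2.24 for the AP2B1 42-nt exon. In PICALM the ranges were −3.95 to 4.63 for the 60-nt exon, −0.79 to 4.79 for the 24-nt exon, −5.26 to 0.55 for the 150-nt exon 13 and −1.14 to 3.41 for the event listed for its 129-nt form. For PICALM exon 2 they were −1.87 to 2.65 and −0.40 to 2.00 by its 2 events (−0.030 for the first without effective lengths), and for the forms of exon 1 −5.96 to 0.33 and −5.97 to 0.29. In BIN1 they were −3.69 to 8.29 for exon 12 against exon 16, −2.98 to 0.32 for the 90-nt exon, −4.03 to 5.97 for the 129-nt exon and −0.57 to 0.50 for exon 10. In EPN2 they were −2.50 to 3.83 and −1.70 to 9.37 for the tandem sites and −5.95 to 0.63 for the last exon. The log2 fold change ran from −0.057 to 0.053 for CLTC (0.026 with median-ratio scaling) and from −0.043 to 0.051 for EPN2 (−0.032 summed over all events), and it was −0.014 for CLTB summed over all events. The cause of these changes was not tested. The EPN2 sites 3 nt apart rested on 18 to 32 reads per library, which limits the precision of their PSI.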
